A study of Mus musculus with 6 samples.

Results

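The genes of the extracellular matrix and of its receptors were examined in neural stem cells cultured from the subventricular zone of the third ventricle (3 arrays) and of the lateral ventricle (3 arrays). They comprised collagen, laminin and integrin chains by their symbols, and Vcan, Bcan, Ncan, Acan, Fn1, Dcn, Lum, Bgn, Ddr1 and Ddr2. Of 19938 genes measured, 85 belonged to this set, 44 of them collagens, 10 laminin chains, 21 integrin subunits and 10 others. A gene was represented by the probe set with the highest mean signal over the 6 arrays, so the choice did not use the regional difference. All 6 cultures came from wild-type C57BL/6 embryos at embryonic day 17.5, are labelled female, and grew as dissociated cells in low-attachment dishes with FGF and EGF, each at 20 ng/ml. The labels call the arrays of a region biological replicates and do not link its number to an embryo, so each p reflects only how these cultures varied. RNA of a whole culture was measured, so fewer cells of a type and less RNA per cell cannot be told apart.

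Laminins are trimers of an alpha, a beta and a gamma chain, and together with type IV collagen they build basement membranes. Integrins are receptors of an alpha and a beta subunit that bind laminins, collagens or fibronectin at the cell surface. In the developing brain the ventricular zone is rich in laminins and their integrin receptors. The lecticans versican, brevican, neurocan and aggrecan bind hyaluronan and tenascins and make up much of the diffuse matrix of neural tissue, where fibrillar collagens are sparse outside meninges and vessels.

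None of the 85 genes passed at an adjusted p below 0.05 (limma, adjusted over all 19938 genes), where 0.231% of all genes did, 0.145% as higher and 0.0853% as lower. At an unadjusted p below 0.05 there were 10 of 85 (11.8%), against 12.6% of all genes, so the share lay near the background. Of these 10, 7 were higher in the third ventricle cultures (6.21% of all genes were) and 3 were lower (6.43% of all genes). The groups did not overlap for 18 of the 85 (21.2%), 12 higher and 6 lower, against 17.0% of all genes, 7.77% higher and 9.24% lower. The 18 included Col28a1, Itga2b, Lama2 and Lum, which lay below the background gauge described below in all arrays. They also included Itga2 and Itgb1, whose nearest arrays were equal at 2 decimals. A fit with array weights called 2 of the 85, Lamb1 and Col28a1, both with a positive difference, against 0.792% of all genes (0.446% higher). Of these, Col28a1 lay below the background gauge described below in all arrays. The median log2 difference, the third minus the lateral ventricle, was 0.01 over the 85 genes and -0.02 over all genes.

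The arrays differed in ways that bear on these genes. Over all genes the third ventricle arrays correlated at 0.995 with each other. Lateral ventricle array 2 correlated at 0.991 to 0.992 with them, and at 0.980 and 0.982 with lateral ventricle arrays 1 and 3. Cell cycle genes showed the same division, with a list median, relative to each gene's mean, of 0.57, 0.54 and 0.58 in the third ventricle arrays, against -1.36, 0.57 and -0.88 in lateral ventricle arrays 1, 2 and 3. Without lateral ventricle array 2, 6 of the 85 matrix genes passed (7.06%), against 8.25% of all genes, and 12 had an unadjusted p below 0.05, against 21.5% of all genes (10.3% higher and 11.2% lower). Of the 6, Lamb1, Itgb5, Itga4 and Col28a1 were higher (4.37% of all genes were) and Ddr2 and Itga2 lower (3.88% of all genes). Their values are given below beside those over all arrays. That fit leaves only lateral ventricle arrays 1 and 3, and the part of the cell cycle genes in it was not tested. Lateral ventricle array 2 was singled out for its likeness to the third ventricle arrays. The p of the fit without it therefore depend on that choice.

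Signals of different probe sets are not comparable as amounts, and no order of levels between genes is given. As a gauge of background, the 95th percentile of 1027 olfactory receptor genes lay between 5.03 and 5.16 on the log2 scale. Of the 85 genes, 50 lay above it in all 6 arrays, 16 in some and 19 in none. Of the 50, 7 had an unadjusted p below 0.05 (14%), against 16.6% of the 11020 genes above it. The genes below it in all arrays included the proteoglycans Acan, Dcn, Lum and Bgn, the laminin chains Lama2 and Lama3, and 8 of the 21 integrin subunits. Of the neural stem and progenitor markers 11 of 12 lay above the gauge in all arrays, among them Nes, Sox2, Vim and Fabp7. Of the endothelial markers 8 of 12 lay below it in all arrays, among them Cdh5, Pecam1, Tek and Cldn5. Flt1 and Plvap of that list lay above it in all arrays, with differences of 0.29 and 0.26 (adjusted p = 0.327 and 0.406). Of the meningeal and fibroblast markers 9 of 16 lay below it in all arrays, among them Foxc1, Foxc2 and Aldh1a2, while Pdpn, Ptgds, Thy1 and Twist1 lay above it in all arrays. Of the pericyte and smooth muscle markers 6 of 11 lay below it in all arrays, among them Pdgfrb, Rgs5 and Kcnj8. Another 3 of that list lay above it in all arrays and 2 in some. Of the microglia and macrophage markers 7 of 12 lay below it in all arrays, among them Csf1r and Aif1. Another 2 lay above it in all arrays and 3 in some. The summed linear signal of the meningeal and fibroblast list ranged from 1413 to 1639 in the third ventricle arrays and from 1290 to 1649 in the lateral ventricle arrays. That of the endothelial list ranged from 316 to 336 in the third ventricle arrays and from 282 to 322 in the lateral ventricle arrays. That of the pericyte and smooth muscle list was higher in every array of the third ventricle, 423 to 476, against 353 to 395 in the lateral ventricle arrays, with Acta2 at a log2 difference of 0.77 (adjusted p = 0.292) and Tagln at 0.32 (adjusted p = 0.336). Of the 11 genes of that list 10 had a positive difference, as did 9052 of all 19938 genes. The groups did not overlap for 3 of them (27.3%, against 17.0% of all genes). Without Acta2 and Tagln the sums overlapped, 249 to 284 in the third ventricle arrays and 251 to 255 in the lateral ventricle arrays. Array 1 of the third ventricle was the lowest, and its arrays 2 and 3 were above all lateral ones. Leaving out genes that were higher brings the sums closer by construction. The part of these lists in the results below was not tested.

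The promoters of the genes with an unadjusted p below 0.05 and a signal above the gauge in all 6 arrays are shown because these 7 had the lowest p of the matrix genes measured above it. Lamb1, Itgav, Itgb5, Itga2, Vcan and Bcan had an entry, and the seventh gene was Lamc1. Each window runs from 250 bases before to 50 after the annotated start, read 5′ to 3′ on the gene's strand, from RefSeq on GRCm38.p6. The windows are chr12:31265043-31265342 for Lamb1, chr2:83724147-83724446 for Itgav and chr16:33829415-33829714 for Itgb5, all on the plus strand. They are chr13:114932051-114932350 for Itga2, chr13:89742463-89742762 for Vcan and chr3:88000307-88000606 for Bcan, all on the minus strand. Capitals mark matches to the GC box GGGCGG, the CCAAT box CCAAT and the TATA box TATAAA, searched on both strands, with 0 overlapping matches.
Lamb1: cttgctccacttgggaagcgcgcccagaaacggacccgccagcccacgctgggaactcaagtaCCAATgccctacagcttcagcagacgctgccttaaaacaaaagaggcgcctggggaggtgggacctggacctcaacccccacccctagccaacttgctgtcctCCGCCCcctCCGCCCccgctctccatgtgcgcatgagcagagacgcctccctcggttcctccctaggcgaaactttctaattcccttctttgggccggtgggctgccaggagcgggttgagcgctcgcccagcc
Itgav: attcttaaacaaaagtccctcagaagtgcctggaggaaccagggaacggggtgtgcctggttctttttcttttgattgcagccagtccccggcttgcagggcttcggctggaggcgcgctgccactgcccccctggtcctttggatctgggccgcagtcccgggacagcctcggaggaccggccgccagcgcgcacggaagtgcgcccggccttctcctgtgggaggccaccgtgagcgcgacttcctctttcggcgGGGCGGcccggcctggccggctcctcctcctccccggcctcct
Itgb5: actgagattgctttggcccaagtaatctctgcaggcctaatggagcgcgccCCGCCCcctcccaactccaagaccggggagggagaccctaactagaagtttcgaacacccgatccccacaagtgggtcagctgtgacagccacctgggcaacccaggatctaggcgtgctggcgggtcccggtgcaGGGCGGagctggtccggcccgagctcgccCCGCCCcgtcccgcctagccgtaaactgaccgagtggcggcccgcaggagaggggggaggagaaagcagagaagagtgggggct
Itga2: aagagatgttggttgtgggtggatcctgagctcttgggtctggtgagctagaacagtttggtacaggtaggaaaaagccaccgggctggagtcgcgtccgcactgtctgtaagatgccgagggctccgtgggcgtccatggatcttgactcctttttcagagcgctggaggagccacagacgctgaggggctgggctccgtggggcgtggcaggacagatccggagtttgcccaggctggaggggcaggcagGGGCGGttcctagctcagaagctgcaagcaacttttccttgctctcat
Vcan: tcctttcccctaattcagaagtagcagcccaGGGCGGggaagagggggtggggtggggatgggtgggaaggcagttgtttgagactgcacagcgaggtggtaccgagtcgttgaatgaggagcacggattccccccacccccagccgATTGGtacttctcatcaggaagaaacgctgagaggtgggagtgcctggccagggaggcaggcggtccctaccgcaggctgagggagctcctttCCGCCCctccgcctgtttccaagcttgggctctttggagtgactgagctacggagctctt
Bcan: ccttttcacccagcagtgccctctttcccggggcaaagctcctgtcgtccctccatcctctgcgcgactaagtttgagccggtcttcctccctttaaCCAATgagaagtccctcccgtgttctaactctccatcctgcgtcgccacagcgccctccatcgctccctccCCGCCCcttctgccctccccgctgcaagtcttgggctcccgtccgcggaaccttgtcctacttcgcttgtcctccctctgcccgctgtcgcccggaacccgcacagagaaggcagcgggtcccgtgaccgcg
A GC box was present in each of the 6 windows, with 3 matches in Itgb5, 2 each in Lamb1 and Vcan, and 1 each in Itgav, Itga2 and Bcan. In Itgav and Itga2 it lay after the annotated start. A GC box was held by 35.7% of all 32851 windows given there. That share and those below count all windows whatever their gene's signal. The 6 were chosen for a signal above the gauge, so the sets are unlike. A CCAAT box was present in Lamb1, Vcan and Bcan and in 37.4% of all windows. The TATA box had no match in the 6 windows and was held by 13.6% of all. The GC content was 59.3% to 67.3%, against a median of 52.7% over all windows. The genes with higher and with lower values in the third ventricle cultures both held GC boxes, and a match of letters does not show that a factor binds there.

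Among the laminin chains, the beta and gamma chains Lamb1 and Lamc1, which assemble with different alpha chains into most laminins of basement membranes, stood higher in the third ventricle cultures without passing the test. Lamb1 (Entrez gene 16777) had the lowest p of the 85 genes, with log2 values of 7.24, 7.24 and 7.44 in the third ventricle arrays, against 5.90, 6.50 and 6.48 in the lateral ventricle arrays. All values of the third ventricle lay above all lateral ones. The means were 7.31 ± 0.11 in the third and 6.29 ± 0.34 in the lateral ventricle cultures (SD, n = 3 each), a difference of 1.01 (SE 0.17, 95% interval 0.63 to 1.40) or 2.02-fold, with a limma adjusted p of 0.0790. Without lateral ventricle array 2 the difference was 1.12 and passed (adjusted p = 0.00568). Against that array alone, with no lateral replicate, the difference was 0.80, so each lateral array lay below the third ventricle cultures for this gene.

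Lamc1 (Entrez gene 226519) had log2 values of 7.74, 7.91 and 7.88 in the third ventricle arrays, against 7.43, 7.45 and 7.66 in the lateral ventricle arrays. The groups did not overlap, and the difference was 0.33 (SE 0.10, interval 0.09 to 0.57, adjusted p = 0.303). Unlike Lamb1, it did not pass without lateral ventricle array 2 (0.30, adjusted p = 0.169).
The alpha chain Lama4, which occurs in vessel and mesenchymal laminins, had 6.25, 6.19 and 6.36 in the third ventricle arrays, against 5.41, 6.12 and 6.11 in the lateral ventricle arrays. Its difference of 0.39 (interval -0.05 to 0.82, adjusted p = 0.443) came mainly from lateral ventricle array 1, without which it was 0.15. Lama1, an alpha chain of embryonic basement membranes, differed by 0.24 (interval -0.13 to 0.60, adjusted p = 0.583), with the third ventricle arrays at 5.86 to 5.93 inside the lateral range of 5.35 to 6.00. Leaving out lateral ventricle array 1 gave 0.09, and leaving out array 3 gave 0.41. Lama5, a widespread alpha chain, differed by 0.21 (adjusted p = 0.463), and Lamb2, a beta chain of synaptic and mature basement membranes, by 0.15 (adjusted p = 0.582). The alpha chains Lama2 and Lama3 lay below the gauge in all arrays, and their differences of 0.19 and 0.03 are not read as differences in level. Counting them, 8 of the 10 laminin chains had a positive difference, with a median of 0.20, against -0.02 over all genes. The groups did not overlap for 5 of the 10, Lama2 among them (50%, against 17.0% of all genes). Lamb3, a beta chain of epithelial laminins, was among the 5 and had the opposite sign (-0.10, adjusted p = 0.691).

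The integrin subunits held both directions. Itgav, the alpha subunit of receptors for vitronectin, fibronectin and latent TGF-beta (Entrez gene 16410), had 8.79, 8.74 and 8.85 in the third ventricle arrays, against 8.08, 8.34 and 8.49 in the lateral ventricle arrays. The groups were apart, and the difference was 0.49 (SE 0.12, interval 0.21 to 0.77) or 1.40-fold (adjusted p = 0.219). Itgb5, a beta subunit that pairs with Itgav as a vitronectin receptor (Entrez gene 16419), had 6.88, 6.79 and 6.76 in the third ventricle arrays, against 6.16, 6.58 and 6.04 in the lateral ventricle arrays. Lateral ventricle array 2 was the closest of the lateral arrays to the third ventricle cultures. The difference of Itgb5 was 0.55 (SE 0.14, interval 0.22 to 0.88) or 1.46-fold over all arrays (adjusted p = 0.253) and 0.71 without lateral ventricle array 2 (0.48 to 0.94, adjusted p = 0.00407). Itgb8, the other beta partner of Itgav with a main place in neural progenitors, where it activates latent TGF-beta, differed by -0.04 (interval -0.42 to 0.34, adjusted p = 0.95).

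The subunits of the laminin receptor of Itga6 and Itgb1 differed in sign. Itgb1, the beta subunit shared by many laminin, collagen and fibronectin receptors, differed by 0.23 (interval -0.01 to 0.47, adjusted p = 0.409). The lowest array of the third ventricle and the highest lateral one both lay at 10.79. Itga6, an alpha subunit of laminin receptors, had 9.49, 9.04 and 9.24 in the third ventricle arrays, against 9.38, 9.38 and 9.61 in the lateral ventricle arrays, and differed by -0.20 (interval -0.51 to 0.11, adjusted p = 0.590). The ranges overlapped. The laminin-binding subunit Itga7 had a difference of -0.22 (adjusted p = 0.454) and exceeded the gauge in 2 arrays of the third ventricle and in all 3 of the lateral ventricle.

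The subunits Itga2 and Itga4 depended on lateral ventricle array 2. Itga2, the alpha subunit of a collagen and laminin receptor (Entrez gene 16398), had 5.99, 5.91 and 5.67 in the third ventricle arrays, against 6.86, 5.99 and 6.41 in the lateral ventricle arrays. At 2 decimals array 1 of the third ventricle and lateral ventricle array 2 were equal, and lateral ventricle arrays 1 and 3 stood above all others. The difference was -0.56 (SE 0.21, interval -1.04 to -0.09, adjusted p = 0.349) over all arrays, -0.78 without lateral ventricle array 2 (-1.14 to -0.41, adjusted p = 0.0213) and -0.13 against that array alone, and it was -0.34 without lateral ventricle array 1. Itga4, an alpha subunit of receptors for fibronectin and VCAM1 (Entrez gene 16401), had 5.67, 5.68 and 6.08 in the third ventricle arrays, against 4.39, 6.26 and 5.28 in the lateral ventricle arrays. The lateral arrays spanned 1.87 on the log2 scale and lay on both sides of the third ventricle cultures, with array 1 below the gauge. Itga4 differed by 0.50 (interval -0.43 to 1.42, adjusted p = 0.659) over all arrays, by 0.98 without lateral ventricle array 2 (0.41 to 1.54, adjusted p = 0.0498) and by -0.45 against that array alone. Its order over the lateral arrays was that of the cell cycle list. Of the 21 integrin subunits, 12 had a positive and 9 a negative difference, with a median of 0.04. The platelet subunit Itga2b, with a difference of 0.26, lay below the gauge in all arrays.

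**Figure D1:**
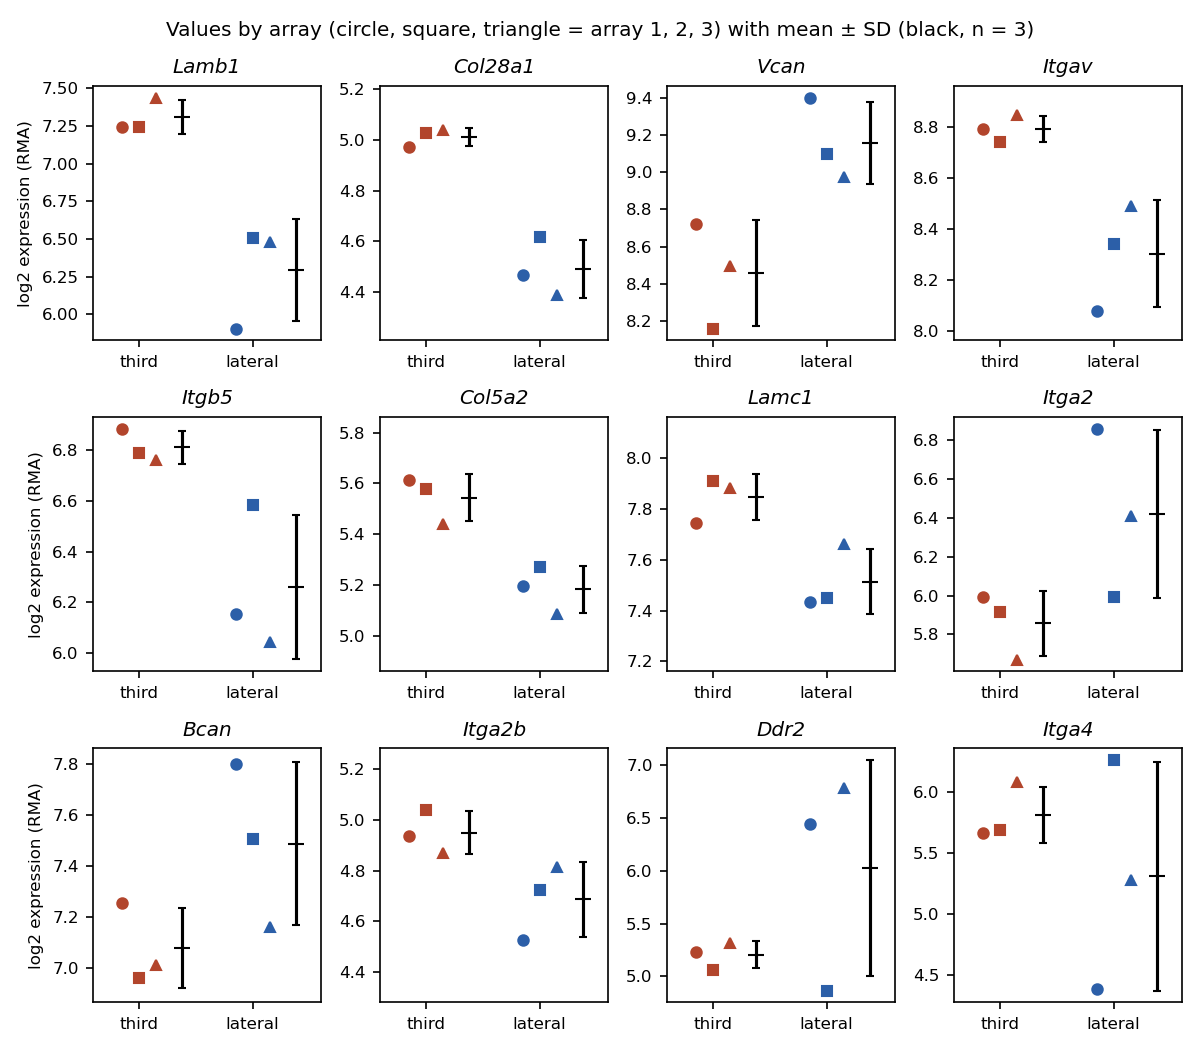
Log2 expression (y axis) of the 10 matrix genes with the lowest p, in order, and of Ddr2 and Itga4, in the third (red, left) and lateral (blue, right) ventricle arrays; symbols mark arrays 1, 2 and 3 and black bars the mean ± SD (n = 3), and y axes differ between panels. The groups are apart for the 10 genes except Bcan, though nearly touching for Itga2, and Col28a1 and Itga2b lie below the background gauge in all arrays. For Ddr2 and Itga4 lateral array 2 lies on the other side of the third ventricle arrays from lateral arrays 1 and 3.

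The measured signals of the collagens differed little between the regions. Of these genes, 31 lay above the gauge in all 6 arrays, 8 in some and 5 in none. RMA understates differences of dim probe sets, so small differences in signal need not mean equal levels. Of 44, 2 had an unadjusted p below 0.05 (4.55%, against 12.6% of all genes), the median difference was 0.01, and differences ranged from -0.23 to 0.52. For 41 of the 44 the 95% interval lay within a 1.5-fold difference in either direction, as it did for 71 of all 85 matrix genes and 82.2% of all genes. Over the lateral ventricle arrays 2 of the 44 collagens spanned more than 0.5 on the log2 scale (4.55%), against 19.8% of all genes.
Col5a2, a chain of the minor fibrillar type V collagen (Entrez gene 12832), had 5.61, 5.58 and 5.44 in the third ventricle arrays, against 5.19, 5.27 and 5.09 in the lateral ventricle arrays. The groups were apart, but lateral ventricle array 3 was below the gauge and the others were close above it. Its difference was 0.36 (SE 0.10, interval 0.13 to 0.59, adjusted p = 0.262). Col28a1, a beaded-filament-like collagen known from peripheral nerve, lay below the gauge in all 6 arrays, so no difference in level is read from it. Its fitted difference was 0.52 (SE 0.10, adjusted p = 0.106), and 0.58 without lateral ventricle array 2 (adjusted p = 0.00823).

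The fibrillar chains Col1a1 and Col1a2 of type I collagen differed by 0.05 and -0.01, and Col3a1, its partner in soft tissue, by 0.11 (adjusted p = 0.662). Of the 11 fibrillar collagens the median difference was -0.0026. The basement membrane chains Col4a1 and Col4a2, the common type IV pair that lies beside laminin, differed by 0.01 and 0.09, and the 6 type IV chains had a median of 0.06. Col15a1, a basement membrane zone collagen with heparan or chondroitin sulfate chains, differed by 0.16 (adjusted p = 0.495), at 5.56 to 5.66 in the third ventricle arrays, against 5.42 to 5.47 in the lateral ventricle arrays. Col18a1, the source of endostatin, differed by -0.07. All 6 type VI collagen chains, which form beaded filaments, had a negative difference, as did 10886 of all 19938 genes. Their median was -0.09, with the largest difference at Col6a2 (-0.22, adjusted p = 0.432). The median was -0.06 without lateral ventricle array 2 and -0.18 against that array alone. Col6a3 and Col6a4 were below the gauge in all arrays, and Col6a5 was above it in only 1 lateral array. Col14a1, which decorates collagen fibrils, differed by -0.23 (adjusted p = 0.413), at 5.15 to 5.41 in the third ventricle arrays, against 5.42 to 5.57 in the lateral ventricle arrays. Col9a2 and Col9a3, cartilage collagens, differed by 0.02 and 0.04, Col11a1, a fibrillar collagen, by -0.08 and Col26a1 by -0.08.

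**Figure D2:**
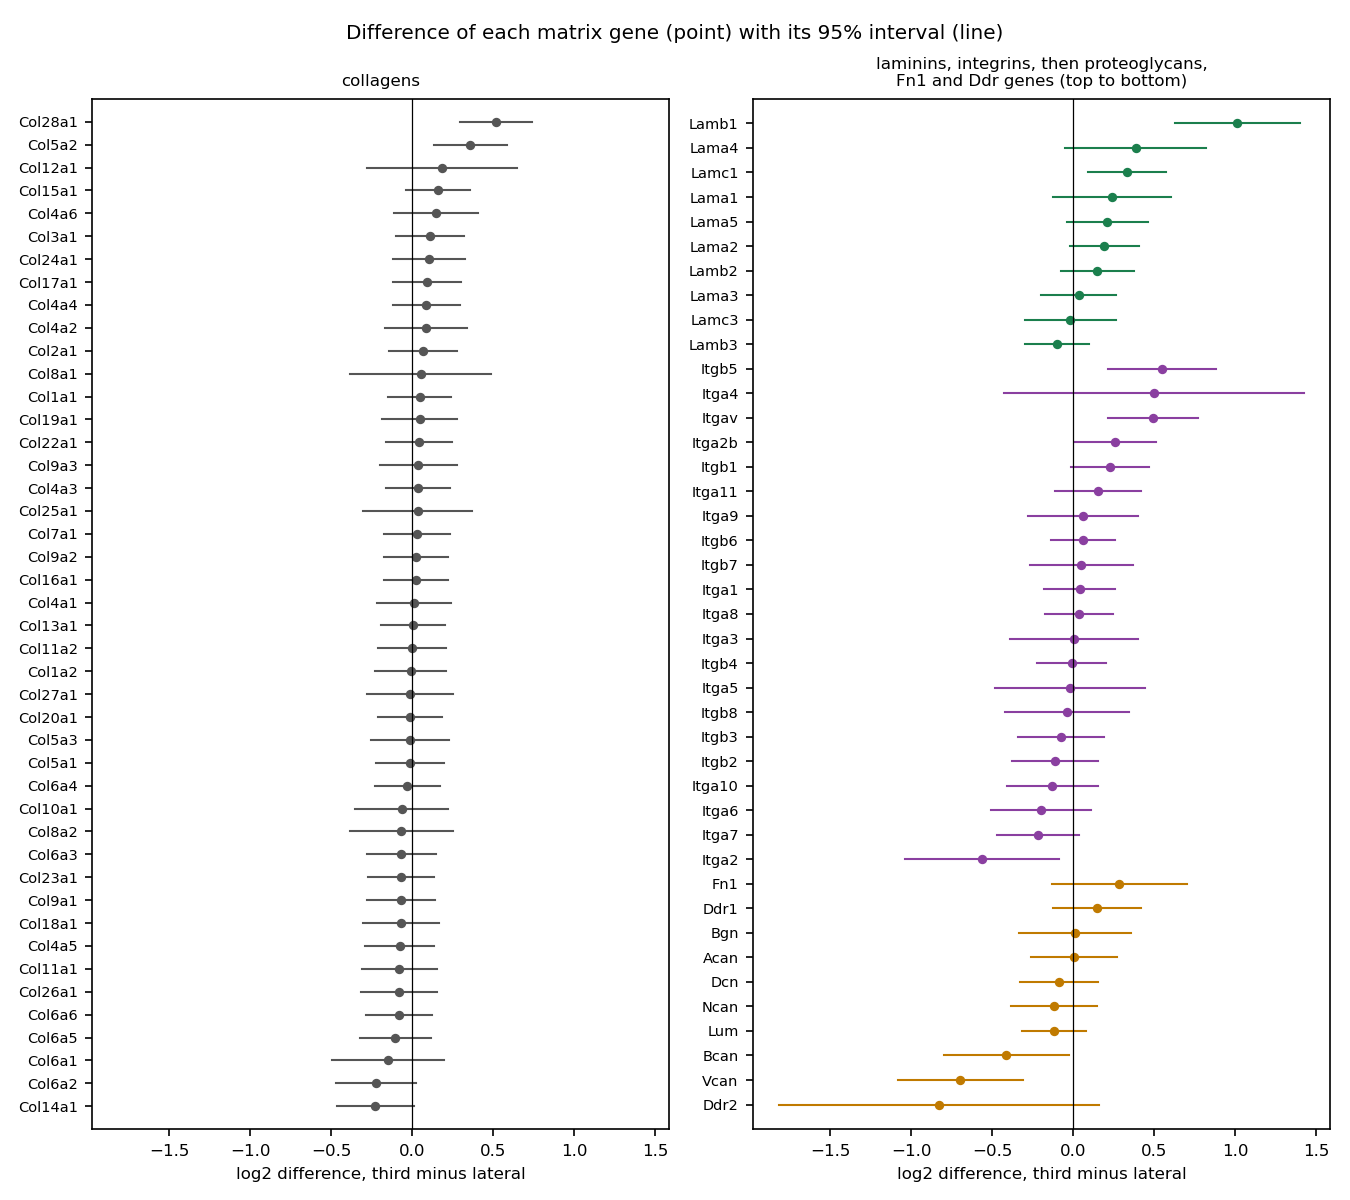
Log2 difference, the third minus the lateral ventricle, of each of the 85 matrix genes (x axis; points) with its 95% interval from limma (lines), collagens on the left and laminins, integrins and the other genes on the right. The collagens lie between -0.23 and 0.52, while Lamb1 reaches 1.01 and Vcan and Ddr2 lie at -0.70 and -0.83.

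The collagen receptors with kinase activity, Ddr1 and Ddr2, differed in their spread. Ddr2, which binds fibrillar collagens and is best known from mesenchymal cells (Entrez gene 18214), had 5.23, 5.06 and 5.31 in the third ventricle arrays, against 6.44, 4.86 and 6.79 in the lateral ventricle arrays. Lateral ventricle arrays 1 and 3 stood above all others, and array 2 stood below all others and below the gauge. Over all arrays the difference was -0.83 (SE 0.43, interval -1.81 to 0.16, adjusted p = 0.468). Without lateral ventricle array 2 it was -1.41 (-1.72 to -1.10, adjusted p = 0.000772), and against that array alone it was 0.34. This gene thus showed no regional difference shared by all lateral arrays. Ddr1, the epithelial and neural relative, had 6.47, 6.22 and 6.23 in the third ventricle arrays, against 6.19, 6.29 and 6.00 in the lateral ventricle arrays, and differed by 0.15 (interval -0.13 to 0.42, adjusted p = 0.662).

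**Figure D3:**
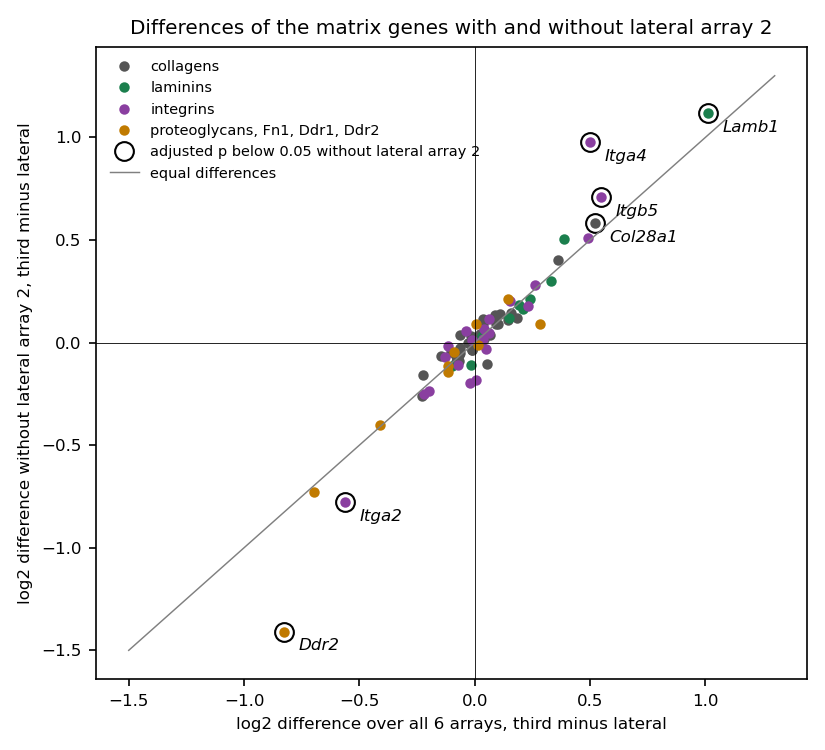
Log2 difference, the third minus the lateral ventricle, of the 85 matrix genes over all 6 arrays (x axis) and without lateral ventricle array 2 (y axis), coloured by family; the line marks equal differences and rings the 6 genes with an adjusted p below 0.05 without that array. Lamb1 and Col28a1 lie near the line, while Ddr2 (-0.83 and -1.41) and Itga4 (0.50 and 0.98) lie farther from it.

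Among the lecticans, versican and brevican stood lower in the third ventricle cultures without passing. Vcan, the large lectican of embryonic matrix (Entrez gene 13003), had 8.72, 8.16 and 8.50 in the third ventricle arrays, against 9.40, 9.10 and 8.97 in the lateral ventricle arrays. The groups were apart, with array 2 of the third ventricle the lowest. The means were 8.46 ± 0.28 in the third and 9.16 ± 0.22 in the lateral ventricle cultures (SD, n = 3 each), a difference of -0.70 (SE 0.17, interval -1.08 to -0.31, adjusted p = 0.214). Without lateral ventricle array 2 it was -0.73 (adjusted p = 0.0527), and against that array alone -0.64, so the value did not rest on that array.
Bcan, brevican, the lectican of glia and of the matrix around synapses (Entrez gene 12032), had 7.26, 6.96 and 7.01 in the third ventricle arrays, against 7.80, 7.51 and 7.16 in the lateral ventricle arrays. Array 1 of the third ventricle lay above lateral ventricle array 3, and the difference was -0.41 (SE 0.17, interval -0.80 to -0.03, adjusted p = 0.371). Without lateral ventricle array 1 it was -0.26. Ncan, neurocan, had 7.92, 7.55 and 7.68 in the third ventricle arrays, against 7.91, 7.78 and 7.81 in the lateral ventricle arrays, which overlapped, and differed by -0.12 (interval -0.38 to 0.15, adjusted p = 0.731). Aggrecan, Acan, the lectican of cartilage and perineuronal nets, was below the gauge in all arrays, as were the small leucine-rich proteoglycans Dcn, Lum and Bgn, for which no levels are compared.

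Oligodendrocyte progenitors are known to express versican and brevican. Of 11 markers of that lineage 8 had a negative difference, as did 10886 of all 19938 genes. Olig1, Olig2 and Nkx2-2, transcription factors of the lineage, had positive ones, 0.17, 0.09 and 0.13 (adjusted p = 0.744, 0.754 and 0.737). Relative to each gene's mean, the median of 11 oligodendrocyte lineage markers was -0.15, -0.38 and -0.30 in the third ventricle arrays, against 0.58, 0.09 and 0.15 in the lateral ventricle arrays. Vcan deviated by -0.09, -0.65 and -0.31 in the third ventricle arrays and by 0.59, 0.29 and 0.16 in the lateral ventricle arrays, so both were lowest in array 2 of the third ventricle and highest in lateral ventricle array 1. Bcan deviated by -0.03, -0.32 and -0.27 in the third ventricle arrays and by 0.52, 0.22 and -0.12 in the lateral ventricle arrays. In lateral ventricle array 3 Bcan thus lay below its mean, where the list lay above. Of the 11 markers 8 lay above the gauge in all arrays and 0 below it in all. Their summed linear signal was 1339 to 1401 in the third ventricle arrays, against 1960 to 2229 in the lateral ventricle arrays. Pdgfra and Lhfpl3 passed as lower (differences of -1.79 and -1.22, adjusted p = 0.00707 and 0.00746). The median of 11 astrocyte markers, on the same scale, was 0.03, -0.09 and -0.06 in the third ventricle arrays. In the lateral ventricle arrays it was 0.42, -0.17 and -0.07. The part of either marker list in the lectican values was not tested.

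Fibronectin, Fn1 (Entrez gene 14268), the ligand of several integrins named above, had 6.43, 6.61 and 6.62 in the third ventricle arrays, against 6.29, 5.88 and 6.64 in the lateral ventricle arrays. Lateral ventricle array 3 stood above the third ventricle arrays and array 2 below all others. The difference was 0.28 (interval -0.13 to 0.70, adjusted p = 0.567), 0.09 without lateral ventricle array 2 and 0.67 against that array alone. Over the lateral ventricle arrays 15 of the 85 matrix genes spanned more than 0.5 on the log2 scale (17.6%, against 19.8% of all genes), and over the third ventricle arrays 2 did (2.35%, against 4.77%). Ddr2 and Itga4 had the widest lateral spans of the 85, 1.92 and 1.87.

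**Figure D4:**
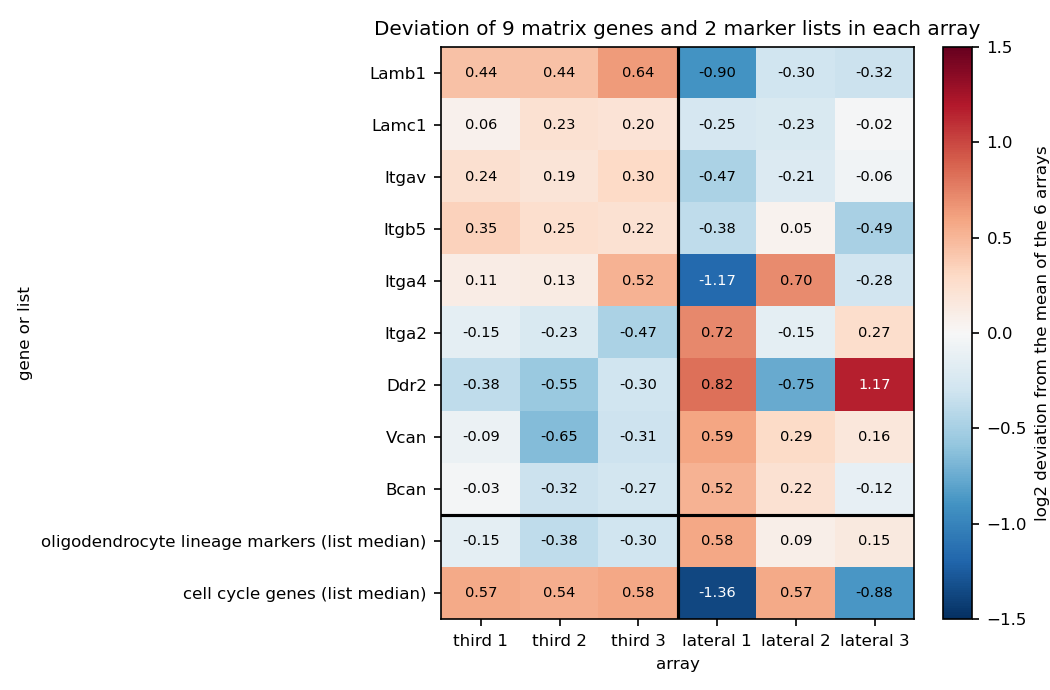
Log2 deviation from the mean of the 6 arrays (colour and number in each cell) for 9 matrix genes and for the medians of the oligodendrocyte lineage and cell cycle lists (rows) in the third and lateral ventricle arrays (columns). Lamb1 is below its mean in all 3 lateral arrays (-0.90, -0.30 and -0.32), whereas in lateral array 2 Itga4 lies at 0.70 and Ddr2 at -0.75, on the side opposite to lateral arrays 1 and 3.

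Genes that make, modify, bind or sense the matrix were read from 7 lists with 161 symbols, of which 155 were measured. None of the 155 passed over all arrays (limma), and 34 had an unadjusted p below 0.05 (21.9%, against 12.6% of all genes). Of the 34, 20 were positive (6.21% of all genes were) and 14 negative (6.43% of all genes). The differences of the 155 had a median of 0.0024. When lateral ventricle array 2 was left out, 17 of the 155 passed (11%, against 8.25% of all genes). Of the 17, 10 were higher (4.37% of all genes were) and 7 lower (3.88% of all genes). For collagen synthesis and cross-linking 0 of 24 passed, with Ppib and P4hb, endoplasmic reticulum enzymes of collagen folding, at -0.07 and -0.08. Of 20 matrix proteases and inhibitors 0 passed, with the sheddase Adam17 at 0.05 and the inhibitor Timp4 at 0.48 (adjusted p = 0.276). Without lateral ventricle array 2 Timp4 was at 0.61 and passed (adjusted p = 0.0108). The 17 partners of basement membranes had a median of 0.15, and 12 of them were positive, as were 9052 of all 19938 genes. Among these partners, Sparc, a collagen-binding glycoprotein, differed by 0.61 (adjusted p = 0.379), or 0.31 without lateral ventricle array 2, and Smoc1 by -0.0035. Of 18 genes of the hyaluronan and perineuronal matrix 0 passed, with Ptprz1, the source of phosphacan, at -0.08 and the lectican ligand Tnc at -0.59, or -0.79 without lateral ventricle array 2 (adjusted p = 0.0291). Among 31 enzymes of chondroitin and heparan sulfate 10 had an unadjusted p below 0.05 (32.3%, against 12.6% of all genes) and 0 passed. Sulf2, which removes sulfate from heparan sulfate, was at 0.75 (adjusted p = 0.239) and Ext1, which extends it, at 0.07. Without lateral ventricle array 2 Sulf2 was at 0.88 and passed (adjusted p = 0.0244). Of 18 cell surface and other proteoglycans 0 passed, with Sdc2 at 0.31 and Gpc6 at 0.13. Of 27 integrin adhesion effectors 0 passed, also without lateral ventricle array 2, with the kinase Fyn at 0.13 and the integrin activator Fermt2 at -0.23.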

How the data were processed

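The authors deposited log2 signals of probe sets from Affymetrix arrays. The submitters' processing notes name RMA and Expression Console 1.1, and no further setting was found in the labels. Per the labels' protocols, cDNA was amplified from 500 pg to 50 ng of RNA, which can add spread between arrays, and RMA understates differences of dim probe sets. The platform annotation gave 1 symbol to 21789 of 35556 probe sets, several to 1621, and none here to 12146. The highest-mean probe set represented a gene, which left 19938 genes. The files name no genome build.

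Differences are the third minus the lateral ventricle, from limma 3.58.1 in R 4.3.3 (lmFit and eBayes, prior of 4.04 degrees of freedom and SD 0.14), with Benjamini-Hochberg adjustment over all genes, a threshold of 0.05 and no filter. The fits were tested on simulated data with independent normal noise, equal spread in both groups and no odd array. These arrays differ from that setting, so the simulation does not show how the fits perform here. For 3 against 3 arrays the smallest two-sided p of an exact permutation test is 0.1. Precision is limited by how few arrays there are. The members, the classes and the 16 other lists were chosen with earlier results of these data known. Genes named were the 30 members with the lowest p, the 4 collagens, 3 laminins and 4 integrins with the highest mean, the 10 genes listed by symbol, members called without lateral ventricle array 2, and from other lists called genes and the 2 with the highest mean. Col1a1, Col1a2, Col4a1, Col4a2, Col6a3, Col6a4, Col6a5, Col18a1, Lama3 and cell cycle genes fall outside this rule. So do genes named from the other lists beyond those. All of them were named after their values were seen. Alternatives covered probe set choice, a dim filter, normalization, variance prior, array weights, a replicate block, a minimum fold and arrays left out.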

Additional observations from a re-analysis of the deposited data

How the results depend on the processing

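Under 15 alternatives the count of passing matrix genes stayed at 0 except with array weights, where it was 2 (Lamb1 and Col28a1), and when arrays were left out singly, where it ranged from 0 to 6, with all 6 calls without lateral ventricle array 2. The count over all genes was 46, with 158 genes under array weights, 17 with a minimum fold of 1.2, and 4 to 1644 when arrays were left out singly, the highest without lateral ventricle array 2. It was 7, 4 and 4 without arrays 1, 2 and 3 of the third ventricle, and 25 and 20 without lateral ventricle arrays 1 and 3. With a replicate block 57 genes and 0 matrix genes passed. The correlation of deviations between arrays of the same number was 0.24, 0.11 and 0.07. Between arrays of different numbers it was lower, -0.145 to 0.0398. Whether the numbers pair the cultures cannot be settled from these values. The main fit did not pair them, because the labels do not link the numbers to embryos. Of 39 named matrix genes, 33 kept their sign in every alternative that tested them and 6 passed in at least 1. All alternatives used the same arrays. The variance prior, the replicate block and the minimum fold leave the difference itself unchanged, so a kept sign is not independent support. Ddr2, Itga4, Col9a3, Itgb8, Acan and Bgn turned sign in at least 1 alternative, and none of the 6 passed over all arrays. Lamb1 ranged from 0.80 to 1.12 and Vcan from -0.83 to -0.55. Against lateral ventricle array 2 as the only lateral array, the cell cycle gene Top2a had a difference of -0.053 and Pcna of -0.0046, against 1.17 and 0.56 over all arrays. The cause was not tested. Of 298 class medians under alternatives, 279 moved by less than 1 SD between arrays and 19 by more. With 3 arrays a group the 95% interval of a matrix gene had a median half-width of 0.24 on the log2 scale, and the levels of 19 of the 85 genes, below the gauge in all arrays, cannot be compared.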

Other observations

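Further matrix genes outside the 85, named after their values were seen, passed without lateral ventricle array 2 and not over all arrays. They come from the 17 of 155 listed genes that passed that fit (11%, against 8.25% of all genes). The p of that fit depend on the choice of the array left out. Adamts5, Colgalt2 and Dse also passed it, with differences of -0.57, 0.76 and -0.61 over all arrays (limma, adjusted p = 0.0863, 0.0972 and 0.153). Tnr, the tenascin that crosslinks lecticans, had log2 values of 5.35, 4.87 and 5.02 in the third ventricle arrays, against 7.72, 6.07 and 6.20 in the lateral ventricle arrays. All lateral values were higher, lateral ventricle array 1 most, and the difference was -1.58 (limma, adjusted p = 0.231), or -1.88 without lateral ventricle array 2 (adjusted p = 0.0197). In the third ventricle cultures 1 of 3 arrays lay above the background gauge. Mmp14, a membrane-bound matrix protease, had 6.94, 6.39 and 6.85 in the third ventricle arrays, against 7.91, 7.13 and 7.71 in the lateral ventricle arrays, and the groups were apart. Its difference was -0.86 (adjusted p = 0.236), or -1.08 without lateral ventricle array 2 (adjusted p = 0.00659).

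Sdc3, a neural heparan sulfate proteoglycan, had 6.78, 6.56 and 6.90 in the third ventricle arrays, against 5.90, 6.57 and 6.04 in the lateral ventricle arrays. Lateral ventricle array 2 lay inside the third ventricle range, and the difference was 0.58 over all arrays (adjusted p = 0.302) and 0.78 without it (adjusted p = 0.00809). Chst7, a chondroitin sulfotransferase, had 7.40, 7.75 and 7.42 in the third ventricle arrays, against 6.42, 7.26 and 6.75 in the lateral ventricle arrays. The groups were apart, with a difference of 0.72 (adjusted p = 0.287), or 0.94 without lateral ventricle array 2 (adjusted p = 0.00708).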
